A study of Mus musculus with 6 samples.

Results

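The genes described here are the secreted Wnt ligands, their cell-surface receptors and the secreted proteins that block them, in mouse femur 21 days after focal radiation. Members were taken by name from the table of 43346 genes: protein-coding Wnt, Fzd, Dkk and Sfrp genes followed by a digit, plus Sost, Sostdc1, Wif1, Lrp4, Lrp5, Lrp6 and Axin2. This gave 44 genes, of which 19 are Wnt ligands, 10 are Frizzled receptors, 4 are Dkk genes and 4 are Sfrp genes. The animals were 4-month-old C57BL/6 mice, an inbred laboratory strain. A single X-ray dose of 24 Gy (gray, the unit of absorbed dose), at 6.6 Gy per minute, was aimed at a stretch of 5 mm in the distal metaphysis of the right leg's femur, and the left femur of such mice was not radiated. The metaphysis is the trabecular, marrow-filled end of the shaft beside the growth plate. Bone stripped of muscle gave 3 radiated and 3 non-radiated RNA-seq libraries on day 21, ahead of the bone loss seen on day 28. The comparison therefore asks which transcripts differed before that loss. The non-radiated libraries came from animals whose opposite leg had been radiated, and no library from an animal without radiation entered the comparison. Nothing in the labels says that the libraries of a group are separate animals, so the p-values measure the spread between these libraries, which may be technical.

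Wnt proteins are lipid-modified secreted ligands that bind Frizzled receptors together with the co-receptors LRP5 and LRP6. In the canonical branch this binding stabilises beta-catenin, which enters the nucleus and acts with TCF and LEF factors. In bone the pathway is known for promoting osteoblast formation and for restraining osteoclast formation through osteoprotegerin, and osteocytes are known to restrain it by secreting sclerostin, the product of Sost. Secreted antagonists act at different steps. SFRP proteins and WIF1 bind the ligands, whereas DKK1 and sclerostin bind LRP5 and LRP6.

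Total gene counts ran from 34034251 to 48708383 per library. The non-radiated libraries are called NR1, NR2 and NR3 and the radiated ones R1, R2 and R3. In NR2 a single row, AY036118, held 32.9% of the counts, against 0.321% to 5.61% in the other 5 libraries. That left 23260283 counts for the other genes of NR2. Cdkn1a, the p53 target that encodes p21, was at 8.80, 7.43 and 7.93 CPM (a gene's counts per library total scaled by the trimmed mean of M-values, TMM, as edgeR defines it) in the non-radiated libraries and 33.1, 29.96 and 31.2 CPM in the radiated ones, which matches the radiation labels. The defining bone markers Bglap, Ibsp and Dmp1 were at 19.3 CPM or more in each library. In bulk bone, fewer cells of a type and less RNA per cell cannot be told apart. Summed levels of several marker lists moved with the groups or with single libraries. The 12 osteoblast and osteocyte markers summed to 8302 to 12605 CPM in non-radiated and 6132 to 7952 CPM in radiated libraries. Most of this sum came from Col1a1 and Col1a2, as in NR2, where they were at 4079 and 3627 CPM. The 10 adipocyte markers summed to 157 to 172 CPM in non-radiated and 282 to 429 CPM in radiated libraries. The 6 B cell markers summed to 375 to 408 CPM in non-radiated and 613 to 748 CPM in radiated libraries, the 6 megakaryocyte markers to 921 to 985 and 316 to 379 CPM, and the 6 tendon and periosteum markers to 72.6 to 162 and 131 to 182 CPM. The 12 skeletal muscle markers, on the other hand, summed to 169 to 349 CPM in the non-radiated libraries and to 765, 2543 and 201 CPM in R1, R2 and R3. Their part in the results below was not tested.

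Secreted antagonists or modulators and Frizzled receptors held all of the members that passed the test. The SFRP antagonists Sfrp1 and Sfrp2 had the largest rises among these, Fzd1 doubled, Fzd4, Fzd5 and Dkk3 rose by less, and the antagonist Wif1 fell. No ligand passed. Of the 44 members 30 had enough counts to be tested by edgeR's quasi-likelihood test. Of these, 7 (23.3%) had a Benjamini-Hochberg adjusted p under 0.05, against 7.8% of all 18757 genes tested. Among them 6 were higher in radiated femur, where the share over all genes was 4.56%, and 1 was lower, where it was 3.24%. Of the 30 members, 12 (40%) had groups that did not overlap, against 25.9% of all genes. The median log2 fold change of the tested members was 0.18, against 0.00 over all genes. Of the 30, 25 reached the filter's level of 0.26 CPM, taken on unscaled totals, in all 6 libraries, and Dkk2, Fzd2, Wnt9a, Wnt10a and Wnt11 did not. Wnt11 reached that level in the radiated libraries alone. Dkk2, Wnt9a and Wnt10a reached it in all 3 radiated libraries but in only 1, 2 and 2 non-radiated ones. Fzd2 reached it in 1 non-radiated and 2 radiated libraries. These 5 could pass the filter only with radiated libraries counted, and all had positive fold changes. Such counts and medians are therefore descriptions of the members that passed. The count of higher members was 6 under each other scaling, filter and tool and with the replicate number as a block, and 4 or 5 when 1 library was left out, though under library totals alone Dkk2 was among the 6 and Fzd5 was not. The count of lower members became 3 with the replicate block, where Dkk1 and Lrp4 joined Wif1. It was 0 when NR1, NR3, R2 or R3 was left out. Without NR2 there were 5 higher, with Dkk2 called and Dkk3 and Fzd5 lost, and 2 lower, where Lrp4 joined Wif1. Library totals alone as the scaling, AY036118 included, moved the median of all genes to 0.195. Under it 854 of 1000 called genes were higher, against 856 of 1463 with TMM.

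**Figure D1:**
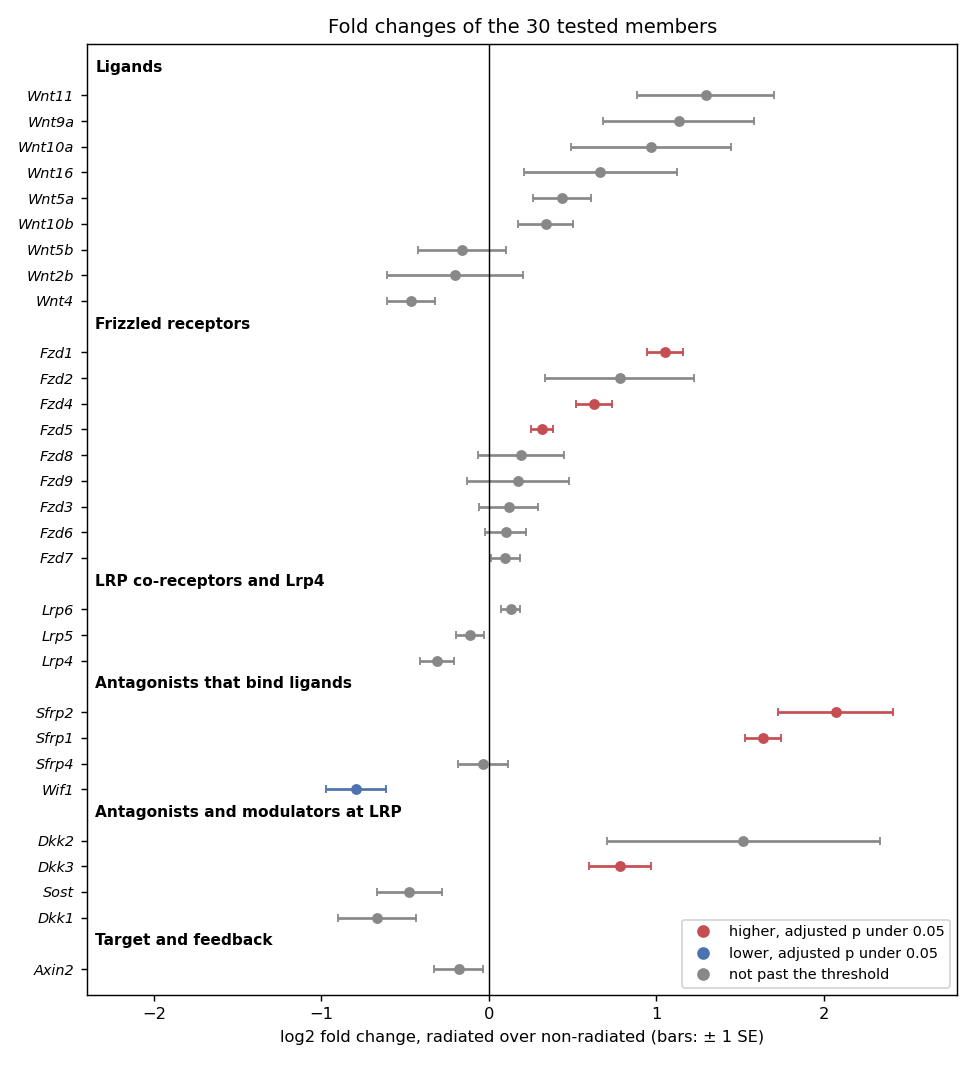
Log2 fold change of each of the 30 tested members, radiated over non-radiated, with bars of 1 standard error, grouped by role. Red points passed the threshold and are higher, and the single blue point (Wif1) passed and is lower. All 9 tested Frizzled receptors lie to the right of 0, among them Fzd2, which passed the filter only with radiated libraries counted.

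Among the antagonists that bind Wnt ligands, Sfrp1 and Sfrp2 rose, Wif1 fell and Sfrp4 did not pass the test. Sfrp1 (ENSMUSG00000031548, chromosome 8, 23411502 to 23449632, build mm10) encodes secreted frizzled-related protein 1, whose cysteine-rich domain resembles that of the Frizzled receptors. It was at 4.99, 4.95 and 5.62 CPM in the non-radiated libraries and 17.6, 15.04 and 15.95 CPM in the radiated libraries. Every radiated library thus lay far above every non-radiated one, and the libraries within a group were close together. The fold change was 3.11, or 1.64 on the log2 scale (SE 0.11, adjusted p by edgeR 2.97e-05), and it was called under all 15 settings, with a range of 1.58 to 1.82.

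Sfrp2 (ENSMUSG00000027996, chromosome 3, 83766321 to 83774316), a close relative of Sfrp1, started from a much lower level. Its raw counts were 36, 25 and 15 in the non-radiated libraries and 124, 205 and 110 in the radiated libraries, or 0.987, 0.998 and 0.354 CPM against 3.28, 3.84 and 2.46 CPM. NR3 was the lowest, and the groups did not overlap. The fold change was 4.21, or 2.07 on the log2 scale (SE 0.34, adjusted p by edgeR 0.00689). This too was called under all 15 settings, with log2 values of 1.68 to 2.33. Sfrp2 overlaps Gm26771, an antisense gene with 1 to 4 counts per library.

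Sfrp4, which in mouse and human bone is known as a factor for cortical bone, had the highest level per kilobase of the SFRP genes in both groups and gave no call. It was at 16.1, 14.0 and 11.5 CPM in the non-radiated and 14.9, 14.6 and 11.05 CPM in the radiated libraries, so the ranges lay over each other. Its log2 fold change was -0.04 (95% interval -0.37 to 0.30, adjusted p by edgeR 0.924), positive at 0.15 under library totals alone. Sfrp5 was not tested, with raw counts of 1, 0 and 0 against 2, 1 and 2.

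Wif1 (ENSMUSG00000020218, chromosome 10, 121033960 to 121100650), which encodes Wnt inhibitory factor 1, moved the other way. It was at 21.8, 13.8 and 21.5 CPM in the non-radiated libraries and 13.1, 9.98 and 10.1 CPM in the radiated libraries. The groups did not overlap, although NR2 lay close to R1. The non-radiated level was 1.73 times the radiated one, a log2 fold change of -0.79 (SE 0.18, adjusted p by edgeR 0.0274). Within the same-numbered pairs the log2 ratios were -0.74, -0.46 and -1.09. The call was lost without NR1 (adjusted p 0.102) or NR3 (0.0785), without R2 (0.0663) or R3 (0.0699), and under library totals alone (0.0870), and it was kept with the replicate block (0.00617).

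**Figure D2:**
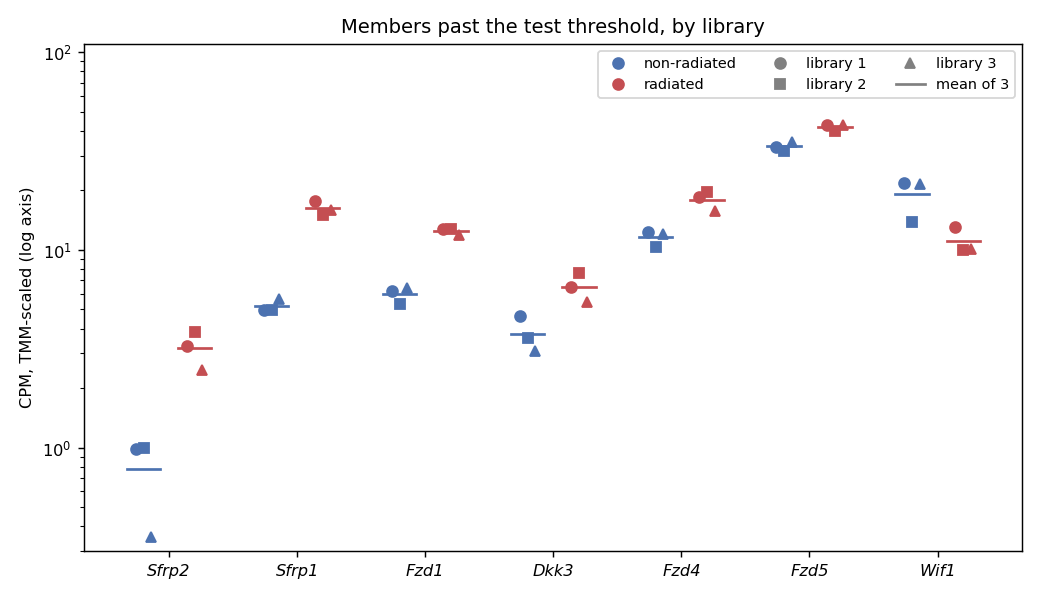
TMM-scaled CPM, on a log axis, of the 7 members past the threshold in each of the 6 libraries, with a line at the mean of 3. Radiated libraries lie above all non-radiated ones for Sfrp2, Sfrp1, Fzd1, Dkk3, Fzd4 and Fzd5, and below them for Wif1.

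The DKK genes and Sost, whose best-known members act at the LRP co-receptors, split in direction. Dkk3 rose, and Dkk1 and Sost had lower means that did not pass the main test, which had the group as its only term. Dkk3 (ENSMUSG00000030772, chromosome 7, 112116019 to 112159057) encodes a divergent family member that, unlike DKK1, is not an established ligand of LRP6. It was at 4.64, 3.59 and 3.09 CPM in the non-radiated libraries and 6.47, 7.60 and 5.42 CPM in the radiated libraries, with no overlap. The log2 fold change was 0.79 (SE 0.18, adjusted p by edgeR 0.0329). The call was lost without NR2 (adjusted p 0.112) or NR3 (0.0858) and without R1 (0.0943) or R2 (0.0888). Dkk3 and Sfrp2 were lowest in NR3 and R3 within their groups, and so were the summed tendon and periosteum and skeletal muscle markers. Of the tendon and periosteum markers 5 of 5 tested were positive and 2 were called higher, against 4.56% of all genes. The part of these markers in both values was not tested.

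Dkk1, which encodes the antagonist that removes LRP5 and LRP6 from signalling, was at 7.08, 4.23 and 6.44 CPM in the non-radiated libraries and 4.94, 3.24 and 3.09 CPM in the radiated libraries. R1 lay above NR2, so the groups overlapped. Each radiated library was below the non-radiated one of the same number, by log2 ratios of -0.51, -0.38 and -1.04. The log2 fold change was -0.67 (SE 0.23, adjusted p by edgeR 0.126), and it was called with the replicate block (0.0386), by DESeq2's Wald test (0.0221) and with no filter on low counts (0.0436). Sost showed the same layout. It was at 13.8, 8.66 and 12.0 CPM in the non-radiated libraries and 10.5, 7.36 and 7.15 CPM in the radiated libraries. Its pair ratios were -0.40, -0.23 and -0.74 and its log2 fold change was -0.47 (SE 0.19, adjusted p by edgeR 0.197, and 0.0510 with the block).

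Lrp4 encodes the co-factor that anchors sclerostin and aids its action. It was at 113, 94.2 and 118 CPM in the non-radiated libraries and 98.9, 80.0 and 84.7 CPM in the radiated libraries, and again R1 overlapped NR2. The log2 fold change was -0.31 (SE 0.10, adjusted p by edgeR 0.104). It was a call with the replicate block (0.0338), DESeq2's Wald test (0.0144) and no filter (0.0260), and without NR2 (0.0419). Wif1, Dkk1, Sost and Lrp4 each had their lowest non-radiated value in NR2, the library with the fewest counts outside AY036118. The summed osteoblast and osteocyte markers, mostly Col1a1 and Col1a2, were lowest there among the non-radiated libraries, at 8302 CPM against 11517 and 12605 CPM. So were the 12 chondrocyte markers, at 347 CPM against 800 and 661 CPM, and these summed to 421, 287 and 449 CPM in R1, R2 and R3, with 11 of 12 negative and 0 called. Of the 12 osteoblast and osteocyte markers 11 had negative log2 fold changes, with a median of -0.56. Of these, 4 were called lower, against 3.24% of all genes. The part of both marker lists in the lower values of these 4 genes was not tested.

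Dkk2, Dkk4 and Sostdc1 had few counts. Dkk2 had 2, 17 and 2 counts in the non-radiated libraries and 30, 44 and 12 in the radiated libraries, so NR2 stood apart and overlapped the radiated range. Its log2 fold change of 1.52 (SE 0.81, adjusted p by edgeR 0.330) was 3.54 without NR2 (0.0335), and it was also a call under library totals alone (0.00479). Dkk4 had 0 counts in each non-radiated library and 0, 1 and 1 in the radiated ones. Sostdc1, a sclerostin-like antagonist of both BMP and Wnt signals, had 1, 0 and 6 counts against 1, 6 and 2.

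All 9 tested Frizzled receptors had positive log2 fold changes, and 3 of them rose, where 4.56% of all genes were called higher. Fzd2 passed the filter only with radiated libraries counted, so the count of positive receptors is a description only. Fzd10, under the filter, had a log2 fold change of -0.25 (SE 0.81) when fitted without it. Fzd1 (ENSMUSG00000044674, chromosome 5, 4753873 to 4758035) was at 6.23, 5.31 and 6.39 CPM in the non-radiated libraries and 12.8, 12.8 and 11.9 CPM in the radiated libraries. The groups stood clear of each other. The fold change was 2.08, or 1.06 on the log2 scale (SE 0.11, adjusted p by edgeR 0.000531), called under all 15 settings. Fzd4 (ENSMUSG00000049791, chromosome 7, 89404366 to 89410110) is the receptor through which norrin and Wnt7 ligands act on vessels. It was at 12.3, 10.4 and 12.0 CPM against 18.5, 19.5 and 15.8 CPM, with no overlap and a log2 fold change of 0.63 (SE 0.11, adjusted p by edgeR 0.00813), again called under all 15 settings. The 6 endothelial markers summed to 227 to 245 CPM in non-radiated and 247 to 269 CPM in radiated libraries, with 4 of 6 positive. Of these markers 1 was called lower and 0 higher, against 3.24% and 4.56% of all genes. Their part in the Fzd4 value was not tested.

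Fzd5 (ENSMUSG00000045005, chromosome 1, 64730558 to 64737751), the Frizzled gene with the highest level per kilobase in both groups, was at 33.3, 31.6 and 35.3 CPM in the non-radiated libraries and 42.6, 39.8 and 42.8 CPM in the radiated libraries. The groups did not overlap and the rise was small, 0.32 on the log2 scale (SE 0.07, adjusted p by edgeR 0.0218). The call was lost without NR1 (0.0682) or NR2 (0.110), without R1 (0.0922) or R3 (0.0536), and under library totals alone (0.224). Fzd5 overlaps RP24-388P13.2, which had 11 to 38 counts per library. The other tested receptors gave overlapping groups. Fzd7 had a log2 fold change of 0.10 (95% interval -0.10 to 0.29, adjusted p by edgeR 0.576). Fzd3, Fzd6, Fzd8 and Fzd9 had values of 0.10 to 0.19, of which Fzd8 turned negative without R1 (-0.03) and Fzd9 without R2 (-0.15) or NR1 (-0.02). Fzd2, with raw counts of 4 to 11 in one group and 8 to 28 in the other, differed by 0.78 on the log2 scale (SE 0.45, adjusted p by edgeR 0.364). Fzd10 had 1 to 6 counts per library and was not tested.

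Neither co-receptor passed the test. Lrp6 was at 119, 108 and 116 CPM in the non-radiated libraries and 122, 129 and 125 CPM in the radiated libraries. The groups did not overlap, but the difference was small, with a log2 fold change of 0.13 (95% interval 0.01 to 0.26, adjusted p by edgeR 0.213). Lrp5, the gene whose loss and gain of function are known to lower and raise human bone mass, was at 52.3, 56.1 and 63.6 CPM against 56.9, 52.2 and 50.3 CPM. Its groups overlapped and its log2 fold change was -0.11 (95% interval -0.30 to 0.07, adjusted p by edgeR 0.495), positive at 0.08 under library totals alone.

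Of the 19 ligands 9 were tested and none passed over all genes, and 4 had an unadjusted p under 0.05, where the share over all genes was 21.5%. Wnt4, a ligand known to act on bone-forming cells, was at 3.59, 3.39 and 4.06 CPM in the non-radiated libraries and 2.85, 2.49 and 2.69 CPM in the radiated libraries. Its groups did not overlap, and its log2 fold change was -0.46 (SE 0.14, adjusted p by edgeR 0.0835). Wnt5a, the best-known ligand of the beta-catenin-independent branch, had the opposite layout, at 3.62, 2.36 and 3.16 CPM against 4.25, 3.76 and 4.46 CPM. Its log2 fold change was 0.44 (SE 0.17, adjusted p by edgeR 0.179). Wnt10b, a ligand known to favour osteoblasts over fat cells, also had groups that did not overlap, at 1.84 to 2.08 CPM against 2.13 to 2.69 CPM. The difference was 0.34 on the log2 scale (SE 0.16, adjusted p by edgeR 0.269). None of these 3 ligands was called under any of the 15 settings.

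Wnt11, whose fold change was the largest among the 9 tested ligands, was counted 4, 3 and 9 times in the non-radiated and 17 times in each of the radiated libraries. With no overlap its log2 fold change was 1.30 (SE 0.41, adjusted p by edgeR 0.0937). Over the settings that gave an adjusted p for Wnt11 it ran from 0.0785 to 0.263, and DESeq2's Wald test gave none. Wnt9a had 14, 6 and 11 counts against 20, 56 and 16, where R2 stood apart, and a log2 fold change of 1.13 (SE 0.45, adjusted p by edgeR 0.182), which was 0.56 without R2. Wnt10a had 9, 3 and 15 counts against 26, 14 and 26 (log2 fold change 0.97, SE 0.48, adjusted p by edgeR 0.284). Wnt9a, Wnt10a and Wnt11 passed the filter only with radiated libraries counted, so their places among the tested ligands are descriptions only. Wnt16, a ligand known for its effect on cortical bone, had 63, 13 and 23 counts against 62, 102 and 42. NR1 lay inside the radiated range, and the log2 fold change of 0.67 had an SE of 0.46 (adjusted p by edgeR 0.458). Without NR1 it was 1.49 (0.0636). Wnt2b and Wnt5b had values of -0.20 and -0.16 with adjusted p of 0.833 and 0.791 by edgeR, and each changed sign under at least 1 setting. Wnt5b shares part of its span with Fbxl14, which had 1403 to 2810 counts per library, so its counts are uncertain where strand was not used.

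The other 10 ligands, like Sfrp5, Dkk4, Sostdc1 and Fzd10, were under the filter, and none of these 14 genes exceeded 9 counts in a library. Wnt3 and Wnt7a had 0 counts in all 6 libraries, which allows up to 0.0561 to 0.120 CPM per library (3 counts of the TMM-scaled total, counting error only). Wnt2 and Wnt8b had 1 count each over all libraries. Wnt1, Wnt3a, Wnt6, Wnt7b, Wnt8a and Wnt9b had 0 to 9 counts per library, and of the 12 genes with a count none was called when fitted without the filter, with adjusted p by edgeR of 0.366 or more. At this depth differences in these genes were not detectable.

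Dividing CPM by the gene length in the table puts the members on 1 scale. In non-radiated femur the highest level was that of Lrp6, at 11.6 ± 0.623 CPM per kilobase (mean ± SD, n = 3), followed by Lrp4 (10.3 ± 1.21), Sfrp4 (7.89 ± 1.32), Wif1 (7.85 ± 1.87), Lrp5 (5.89 ± 0.588), Sost (5.56 ± 1.26) and Fzd5 (4.83 ± 0.266). The ranges of neighbours in this order overlapped down to Fzd5, which stood above Fzd7 (3.25 ± 0.234 CPM per kilobase) in every library. The ligands were lower. Wnt5b was at 1.10 ± 0.347 CPM per kilobase, Wnt4 at 0.878 ± 0.0814 and Wnt10b at 0.823 ± 0.0608, and their ranges overlapped, with Wnt5b below the other two in NR2. In radiated femur Lrp6 again led, at 12.8 ± 0.343 CPM per kilobase, and the highest ligands were Wnt10b at 1.04 ± 0.121 and Wnt5b at 1.002 ± 0.281 CPM per kilobase, with overlapping ranges. Sfrp1 went from rank 12 to rank 9 among the 44 members and Sfrp2 from 23 to 14, while Wif1 went from 4 to 7, Sost from 6 to 8 and Dkk1 from 10 to 13.

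The make-up of the secreted antagonists and modulators differed more than their sum. The levels of the 11 antagonist and modulator genes summed to 30.8, 22.5 and 26.3 CPM per kilobase in the non-radiated libraries and 28.7, 25.1 and 21.7 CPM per kilobase in the radiated libraries, ranges that overlapped. Within that sum Sfrp1 made up 3.71%, 5.04% and 4.88% in the non-radiated libraries and 14.0%, 13.7% and 16.8% in the radiated ones. Wif1 made up 29.2%, 25.3% and 33.7% and then 18.8%, 16.4% and 19.1%. Sost went from 18.7% to 22.1% in the non-radiated libraries to 14.2% to 17.6% in the radiated ones, and Dkk1 from 7.76% to 10.1% down to 5.32% to 7.09%. The shares of these 4 genes did not overlap between groups. Neither did those of Sfrp2 (0.624% to 2.06%, then 5.27% to 7.11%) and Dkk3 (3.50% to 4.77%, then 6.71% to 9.03%). The shares of the other genes of the sum overlapped. A share within a library does not depend on the scaling. It also moves when other genes of the sum move, so these are not separate results. In CPM the groups of Sost and Dkk1 overlapped, and neither gene passed the main test. Sfrp4 had the largest share in radiated femur, at 29.0% to 33.0%.

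Within the SFRP genes alone, Sfrp4 went from 81.8% to 85.025% of the summed level in the non-radiated libraries to 56.6% to 61.3% in the radiated ones. Sfrp1 held 10.6% to 16.1% and then 25.4% to 32.9%. The Frizzled sum was 15.6, 13.9 and 15.7 CPM per kilobase in the non-radiated and 20.7, 20.3 and 19.2 CPM per kilobase in the radiated libraries. Fzd1 supplied 9.15% to 9.80% of it and then 14.8% to 15.1%, and Fzd7 21.4% to 21.9% and then 16.9% to 17.8%. The ligand sum overlapped between groups, at 3.28 to 4.57 and 3.95 to 4.96 CPM per kilobase. Of that sum Wnt4 supplied 18.7% to 24.8% in the non-radiated and 13.7% to 15.7% in the radiated libraries.

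**Figure D3:**
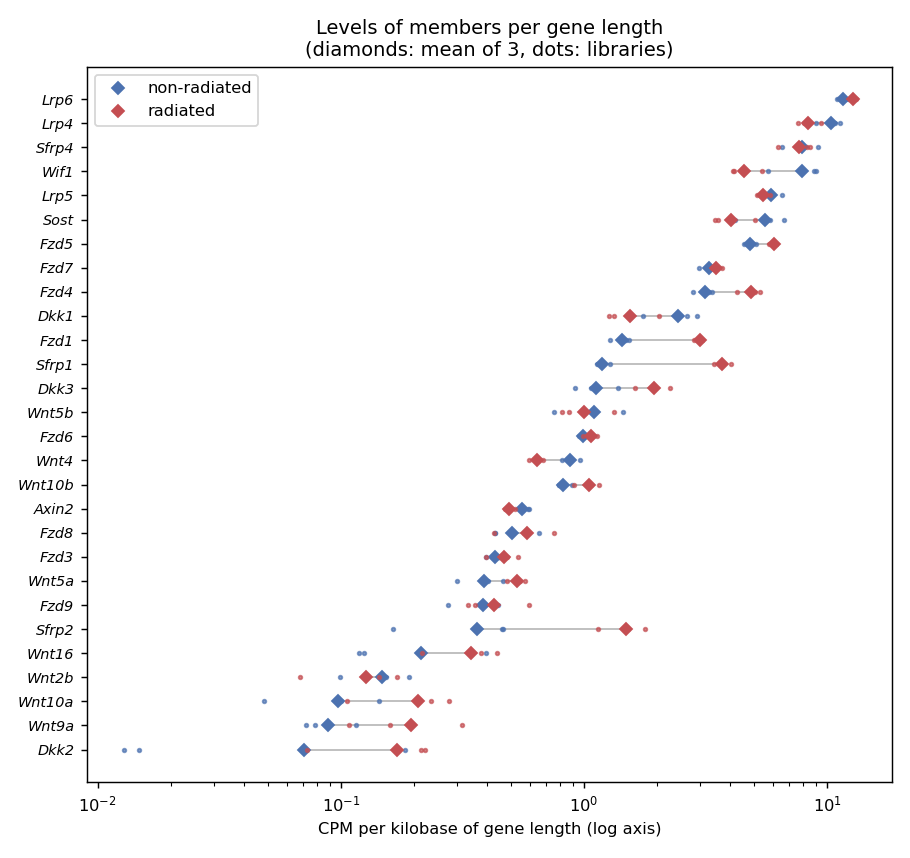
CPM per kilobase of gene length, on a log axis, for the 28 members with a summed mean of both groups over 0.2 in this unit, ordered by the non-radiated mean. Diamonds are means of 3 and dots are libraries; Sfrp1 and Sfrp2 show the widest gaps to the right and Wif1, Sost and Dkk1 lie to the left in radiated femur.

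The sequence before the transcription start is shown for called members that RefSeq's promoter table (build GRCm38.p6, the build known as mm10) holds, since these genes moved with radiation, and for Wnt11, whose stretch holds letters of the TCF/LEF site. The table holds 28 of the 44 members with 31 starts. Each stretch is given 5′ to 3′ on the gene's strand, ends at the RefSeq start or, for Wif1 and Fzd5, at the edge of the gene in the count table, and has capitals where a searched motif matches. The positions are Sfrp2 chr3:83766071-83766320 (plus strand), Wif1 chr10:121033754-121033959 (plus), Fzd1 chr5:4758217-4758466 (minus), Fzd4 chr7:89404116-89404365 (plus), Fzd5 chr1:64737752-64738000 (minus) and Wnt11 chr7:98834862-98835111 (plus).
Sfrp2: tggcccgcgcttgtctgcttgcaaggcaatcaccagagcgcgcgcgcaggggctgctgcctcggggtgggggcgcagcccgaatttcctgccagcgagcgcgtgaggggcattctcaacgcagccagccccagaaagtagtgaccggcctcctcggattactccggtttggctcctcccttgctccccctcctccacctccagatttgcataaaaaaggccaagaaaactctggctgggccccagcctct
Wif1: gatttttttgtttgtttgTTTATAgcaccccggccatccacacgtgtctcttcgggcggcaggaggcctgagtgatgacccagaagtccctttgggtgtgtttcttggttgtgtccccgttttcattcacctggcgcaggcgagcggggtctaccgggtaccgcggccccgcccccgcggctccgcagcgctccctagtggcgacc
Fzd1: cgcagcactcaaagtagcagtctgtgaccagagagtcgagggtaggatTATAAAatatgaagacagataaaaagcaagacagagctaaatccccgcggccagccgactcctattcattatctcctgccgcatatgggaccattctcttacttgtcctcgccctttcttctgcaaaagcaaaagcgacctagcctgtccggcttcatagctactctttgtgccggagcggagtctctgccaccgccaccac
Fzd4: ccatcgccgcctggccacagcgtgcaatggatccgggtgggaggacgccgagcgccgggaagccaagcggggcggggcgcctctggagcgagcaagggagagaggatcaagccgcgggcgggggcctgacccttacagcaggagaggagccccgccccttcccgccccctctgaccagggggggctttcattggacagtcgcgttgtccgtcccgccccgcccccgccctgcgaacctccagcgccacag
Fzd5: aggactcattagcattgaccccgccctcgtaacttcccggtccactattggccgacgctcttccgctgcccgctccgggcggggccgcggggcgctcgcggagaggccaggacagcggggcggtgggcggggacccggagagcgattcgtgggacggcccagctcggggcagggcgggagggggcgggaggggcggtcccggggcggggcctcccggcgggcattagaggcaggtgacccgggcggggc
Wnt11: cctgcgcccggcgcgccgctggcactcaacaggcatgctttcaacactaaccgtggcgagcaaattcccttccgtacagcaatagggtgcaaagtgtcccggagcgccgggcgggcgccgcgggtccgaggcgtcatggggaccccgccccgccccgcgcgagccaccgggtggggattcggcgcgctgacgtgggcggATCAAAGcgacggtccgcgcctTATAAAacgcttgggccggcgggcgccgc

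The motifs were ATCAAAG, read as CTTTGAT on the opposite strand, the core of the site bound by TCF and LEF factors, TGTGGT, or ACCACA, a core bound by Runx factors, and TATAAA, or TTTATA, the TATA box letters, each searched on both strands in the 250 bases before a start. No match overlapped a match of another motif in the stretches shown. ATCAAAG was found in 2 of the 31 member promoters (6.45%), 1 each of Wnt11 and Wnt5b, against 3.21% of all 32851 promoters. In Wnt11 it begins 51 bases before the start and TATAAA begins 29 bases before it. TGTGGT was found in 2 member promoters (6.45%), Dkk1 and Sfrp5, against 14.0% of all. TATAAA was found in 5 (16.1%), among them Fzd1, 202 bases before the start, and Wif1, 232 bases before it on the opposite strand, against 12.4% of all. The stretches of Sfrp2, Fzd4 and Fzd5 held none of the 3 motifs. Their full 250 bases are rich in G and C, at 63.6%, 72.8% and 76.4%, against a median of 52.4% over all promoters and 68.0% over the member promoters.

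The partners of the ligands and receptors at the cell surface and in secretion moved in both directions. Of 28 such genes on a list 26 were tested, with 7 called higher and 2 called lower, which is 34.6% against 7.8% of all genes, and a median log2 fold change of 0.20. Trabd2b encodes Tiki2, a membrane protease that cuts and inactivates Wnt ligands. It was at 2.36, 1.88 and 2.69 CPM in the non-radiated and 7.58, 6.16 and 6.21 CPM in the radiated libraries, a log2 fold change of 1.51 (SE 0.16, adjusted p by edgeR 0.000785). Porcn, the acyltransferase that attaches the lipid to Wnt ligands, was at 5.21, 3.79 and 5.69 CPM against 9.62, 8.39 and 9.14 CPM (log2 fold change 0.88, adjusted p by edgeR 0.00896). Both were clear of overlap and called under all 15 settings, whereas Wls, the carrier that takes Wnt ligands to the cell surface, was not called at -0.14 (adjusted p by edgeR 0.377).

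R-spondins are secreted proteins that bind LGR receptors and raise Frizzled levels at the cell surface. Rspo3 was at 3.51, 2.20 and 2.34 CPM in the non-radiated and 5.63, 4.91 and 6.18 CPM in the radiated libraries, with a log2 fold change of 1.05 (adjusted p by edgeR 0.0112). Rspo2 was at 6.23, 3.95 and 3.96 CPM against 11.1, 7.66 and 7.35 CPM, with a log2 fold change of 0.88 (adjusted p by edgeR 0.0428). The call of Rspo2 was lost without NR2 (0.147) or NR3 (0.115) and without R1 (0.138). Rspo1 and Rspo4 were not called, at 0.09 and -0.57 (adjusted p by edgeR 0.911 and 0.282), although the groups of Rspo4 did not overlap. Of the 3 LGR receptors, 1 rose, 1 fell and Lgr6 was not called at -0.14 (adjusted p by edgeR 0.805). Lgr5 rose from 9.98, 11.02 and 10.7 CPM to 15.6, 15.7 and 21.8 CPM (log2 fold change 0.75, adjusted p by edgeR 0.0106). Lgr4 fell from 17.4, 13.02 and 15.999 CPM to 12.1, 10.04 and 9.55 CPM (log2 fold change -0.56, adjusted p by edgeR 0.0332). The Lgr4 call was lost without NR1 (0.119) or NR3 (0.0779), without R2 (0.0844) or R3 (0.0874), and under library totals alone (0.529). Ptk7, a pseudokinase co-receptor of the planar polarity branch, rose by 0.82 on the log2 scale (SE 0.12, adjusted p by edgeR 0.00443). Tspan12, a partner of Fzd4, was called at 0.61 with an adjusted p by edgeR of 0.0499. It was lost under 8 of the 15 settings, among them the fits without NR1 (0.108), NR2 (0.124), NR3 (0.117), R1 (0.157) or R3 (0.0701). Cthrc1, a secreted protein that binds Wnt and Frizzled complexes, fell from 5.76, 4.71 and 5.40 CPM to 3.65, 2.85 and 3.50 CPM. Its log2 fold change was -0.67 (adjusted p by edgeR 0.0244), lost without NR1 (0.0885) or NR3 (0.0596), without R1 (0.0514) or R2 (0.0709), and under library totals alone (0.445).

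Inside the cell most relay genes stayed close to 0. All 29 genes of that list were tested, with 3 called higher and 1 lower (13.8%, against 7.8% of all genes) and a median of 0.02. Ctnnb1, which encodes beta-catenin, had a log2 fold change of -0.14 (adjusted p by edgeR 0.249), and Gsk3b, Apc and Axin1, of the complex that degrades it, had values of -0.04, 0.01 and 0.08. Lef1, a DNA-binding partner of beta-catenin, rose from 21.6, 16.3 and 19.1 CPM to 34.5, 35.9 and 43.5 CPM (log2 fold change 0.996, SE 0.12, adjusted p by edgeR 0.00133), under all 15 settings. Tcf7l2, another such partner, was just short of the threshold at 0.31 (adjusted p by edgeR 0.0510, and 0.0492 with the replicate block). Early B cells are known to express Lef1. All 6 B cell markers were called higher, against 4.56% of all genes, with a median of 0.80. Their part in the Lef1 value was not tested. The beta-catenin co-factors Bcl9 and Bcl9l rose by 0.37 and 0.51 on the log2 scale (adjusted p by edgeR 0.0332 and 0.0476). Both lost the call without NR1 (0.0929 and 0.160) or NR2 (0.130 and 0.163) and without R1 (0.139 and 0.157) or R3 (0.0718 and 0.0506), Bcl9l also without R2 (0.103) and Bcl9 under library totals alone (0.178). Nlk, a kinase that acts on TCF and LEF factors, fell from 48.7, 43.5 and 45.2 CPM to 32.2, 33.4 and 33.7 CPM (log2 fold change -0.47, adjusted p by edgeR 0.00276), lost under library totals alone (0.665). The list had 2 called genes without NR2, without R1 and without R3.

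Genes reported as targets of the canonical branch did not move as one. Axin2, the member most used as a readout of beta-catenin, was at 2.69, 3.27 and 3.26 CPM in the non-radiated and 2.62, 2.87 and 2.64 CPM in the radiated libraries. The groups overlapped, and its log2 fold change was -0.18 (95% interval -0.51 to 0.15, adjusted p by edgeR 0.544), positive at 0.02 under library totals alone. Of the 9 other target genes 8 were tested and 3 were called, all higher, against 4.56% of all genes. Nkd1 and Nkd2, feedback inhibitors that bind Dishevelled, rose by 1.15 and 0.94 on the log2 scale (adjusted p by edgeR 0.00999 and 0.00961). Nkd1 went from 0.823, 0.878 and 0.826 CPM to 1.58, 1.74 and 2.26 CPM, and Nkd2 from 4.14, 2.64 and 3.99 CPM to 7.11, 6.87 and 6.90 CPM. Ccnd1, which encodes cyclin D1, a cell cycle gene with many inputs, rose from 30.3, 26.4 and 31.0 CPM to 56.3, 47.2 and 54.9 CPM (log2 fold change 0.85, SE 0.09, adjusted p by edgeR 0.000654). Its span overlaps Oraov1, which had 506 to 1104 counts per library. These 3 were called under all 15 settings. Myc was at 30.8, 32.3 and 32.1 CPM against 27.6, 27.8 and 27.6 CPM, with no overlap and an adjusted p by edgeR of 0.0896. Tnfrsf11b (osteoprotegerin), Gja1 and Wisp1 had log2 fold changes of -0.20, -0.28 and -0.08, none of them called, with adjusted p by edgeR of 0.512, 0.248 and 0.807. Tnfrsf19 was at 0.33 (adjusted p by edgeR 0.135, and 0.025 with the replicate block), and Sp5 had 0 counts in all 6 libraries.

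**Figure D4:**
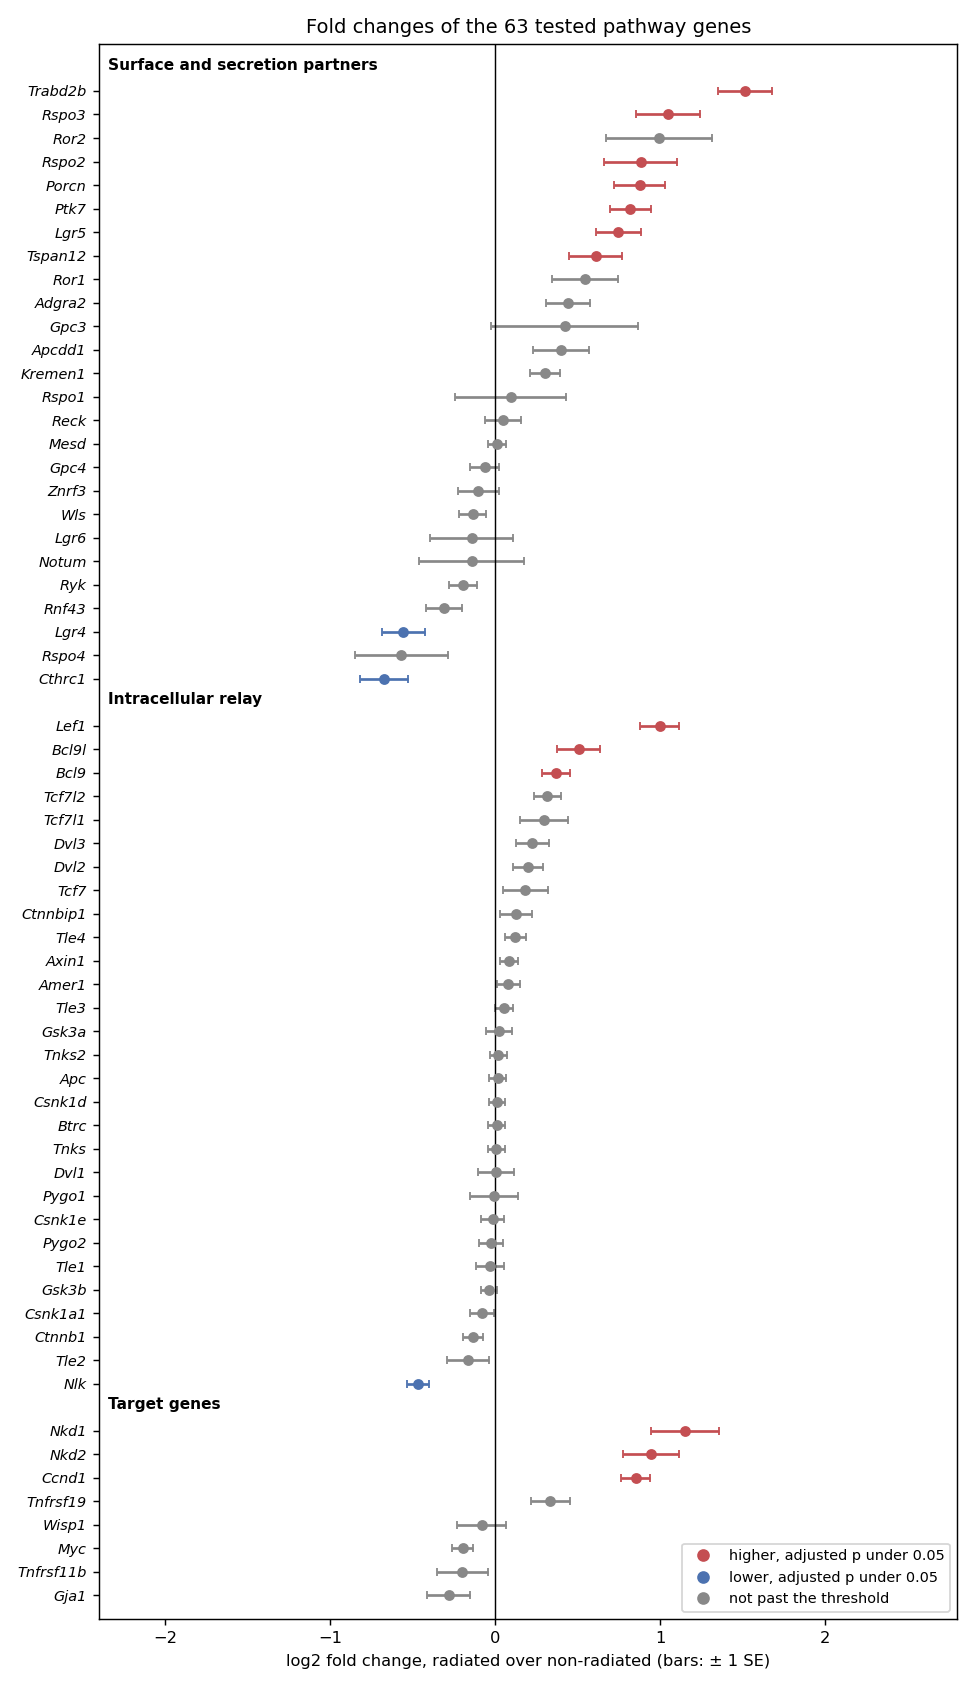
Log2 fold change of the 63 tested pathway genes outside the members, radiated over non-radiated, with bars of 1 standard error, in 3 lists. Red and blue points passed the threshold as higher and lower; most intracellular relay genes lie within 0.2 of 0, while Trabd2b, Nkd1, Rspo3 and Lef1 lie near or beyond 1.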

How the data were processed

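Femur RNA from 6 libraries, 3 per group, was analysed from 1 table of 43346 genes. Whole-number counts per gene were deposited by the authors, per the file headers. RPKM values were also deposited by the authors, scaled to gene length and a library constant not given in the sources used here, and were not used. The submitters' processing notes name STAR 2.5.2b, Subread, featureCounts and build mm10. The annotation and the strand setting are not given in the sources used here, so overlapping genes are uncertain, although the library kit is stranded per the labels' protocols. Total counts of 34034251 to 48708383 per library set the precision.

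Low genes were removed by filterByExpr (minimum count 10 and total 15), and the rest were scaled by TMM and tested with edgeR 4.0.16 (R 4.3.3) by glmQLFit and glmQLFTest with the group as the only term, over 18757 genes, with Benjamini-Hochberg adjustment and a threshold of 0.05. The biological coefficient of variation was 12.9%. The SE is the log2 fold change divided by the square root of F, and 95% intervals use it with the residual and prior degrees of freedom. CPM use TMM-scaled totals, pair ratios add 0.1 CPM, and folds are relative to the bulk of genes.

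The members and lists (66 pathway genes in 3 lists and 78 markers in 9 lists, 3 of these genes matched by gene ID) were chosen with earlier results of these data known. Members were named in full when called, when groups did not overlap or the unadjusted p was under 0.05, or at 5 CPM or more, and pathway genes when called. Other genes were named to describe a list or role. The remaining marker list had 8 marrow stroma genes (2 called lower, against 3.24% of all genes), and no defining marker of any list was at 0.

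Replicates of a group differed by more than sampling noise (chi-square per degree of freedom 13.0 to 448, with AY036118 included). Each library was counted once. Technical libraries can differ in this way too, so the check does not show that the libraries are separate animals. Both groups carry numbers 1 to 3. Deviations from the group means correlated across genes at 0.186, 0.349 and 0.204 for equal numbers and at -0.221 to 0.0203 for unequal ones. Genes are not independent replicates. Deviations sum to 0 within each group, so positive values for some pairings tend to bring negative ones for others. The check therefore cannot settle whether the libraries are paired. The labels do not say that equal numbers mark the same mouse. As a possible pairing only, the number was a block in an alternative fit. The main fit did not use it, so calls given without a named setting ignore any pairing. Further alternatives were the size factors and Wald test of DESeq2 1.42.0, limma-voom (3.58.1), library totals with and without AY036118 and Gm26917, no filter, a mean of at least 1 CPM, and leaving out each library, 15 settings in all with the main one.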

Additional observations from a re-analysis of the deposited data

How the results depend on the processing

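The count of members called higher was 6 in each fit with all libraries and 4 to 5 when 1 library was left out. The genes counted were not always the same. Dkk2 replaced Fzd5 under library totals alone, and without NR2 Dkk2 was called while Dkk3 and Fzd5 were lost. The count called lower, 1 with TMM, was 0 under library totals alone, 3 with no filter on low counts, 3 with DESeq2's Wald test and 3 with the replicate block, where Dkk1 and Lrp4 joined Wif1, and 0 to 2 when 1 library was left out. The block changed no other call of a member. Relay genes called were 4 in the main fit, 2 under library totals alone and 2 to 4 when 1 library was left out. They were 5 with the replicate block, limma-voom, DESeq2's Wald test, no filter or a mean of at least 1 CPM. Library totals without AY036118 and Gm26917 also gave 5. Surface partners called were 6 to 11, and target genes 3 to 4, over all settings. Under library totals alone the log2 fold changes of Axin2 (0.0225), Lrp5 (0.0788), Sfrp4 (0.153) and Wnt2b (0.00596) turned positive. Leaving out 1 library changed signs too, where the log2 fold changes ran from -0.0254 to 0.428 for Fzd8, from -0.153 to 0.333 for Fzd9, from -0.166 to 0.0891 for Sfrp4, from -0.457 to 0.128 for Wnt2b and from -0.405 to 0.0803 for Wnt5b. None of these 7 genes was called under any setting. Sfrp1, Sfrp2, Fzd1 and Fzd4 were called under all 15 settings. Only 3 libraries per group and, for the ligands, low counts limit what could be called.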
